A study of Mus musculus with 568 samples.

Results

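The naive pluripotency factors described here are 10 genes, Nanog, Esrrb, Nr5a2, Tfcp2l1, Zfp42, Klf2, Klf4, Klf5, Tbx3 and Nr0b1. They were chosen by name, but with earlier results of these data known, so the list is not blind to these data. All 10 were found among the 16335 genes of the bulk table and among the 15718 genes of the single-cell table. Naive pluripotency is the state of the preimplantation epiblast, and mouse embryonic stem cells (ESCs) hold it in culture when the cytokine LIF acts through STAT3 and inhibitors block the MEK and GSK3 kinases. The factors form a network in which each tends to bind near the others' genes, and they are known to be shut down when ESCs move to a formative, epiblast-like state. Primordial germ cells, the embryonic precursors of oocytes and sperm, are known to take up part of this network again and to silence it before meiosis.

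All cells came from XRep, a female mouse ESC line that is a hybrid of 129S1/SvImJ and CAST/EiJ. It carries a Tsix truncation on the 129S1/SvImJ X chromosome, a GFP reporter (XGFP) at Hprt on that chromosome, a tdTomato reporter (XTomato) at Hprt on the CAST/EiJ X, and doxycycline-driven transgenes of Prdm1, Prdm14 and Tfap2c. The truncation makes the 129S1/SvImJ X the one that is inactivated when cells differentiate, so that loss of XGFP marks cells with an inactive X. The bulk RNA-seq held 4 groups of 4 libraries: ESCs (grown in serum with LIF and then with 2 inhibitors and LIF), epiblast-like cells (EpiLCs, induced with basic FGF and activin A), and XGFP+ and XGFP- primordial germ cell-like cells (PGCLCs) after 5 days with 1.5 µg/ml doxycycline. The single-cell RNA-seq held ESC wells and 4 populations sorted from reconstituted ovaries (rOvaries), in which PGCLCs were aggregated for 6 days with somatic cells of gonad and mesonephros from female E13.5 embryos. ESCs and EpiLCs were not sorted, whereas both PGCLC groups were sorted as CD61+, SSEA1+ and XTomato+ cells, so sorting cannot be told apart from stage in any comparison of the one with the other.

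Bulk values are normalized counts, reads per gene divided by 1 size factor per library. The recovered depth was between 29.8 M and 46.5 M reads on genes per library, with a median of 37.7 M. Library numbers 1 to 4 come from the labels, which do not say whether the libraries are separate cultures. The methods describe 2 clones with 2 technical replicates each, so the p-values measure the spread between these libraries, which may be technical in part. A gene is called changed where limma gave a false discovery rate (FDR) below 0.001 over 16281 genes, in 1 model of all 16 libraries. Differences are log2 values of the normalized count plus 1, with standard errors (SE). In bulk libraries fewer cells that express a gene and less RNA per cell cannot be told apart. The group labels held against their markers: the 3 EpiLC markers (Fgf5, Otx2, Dnmt3b) summed to between 49630.1 and 57018 in EpiLCs against 879.9 to 4060.0 elsewhere, and the 5 PGCLC markers (Prdm1, Tfap2c, Dppa3, Nanos3, Dnd1) to between 21174 and 22849 in PGCLCs against 1257 to 5653 elsewhere. Prdm1 and Tfap2c are also transgenes, and their reads do not separate transgene from endogenous transcripts.

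On mm10, all 10 are protein-coding genes, and 9 are autosomal. The core factor lies as Nanog at chr6:122707489-122714633 (plus strand, ENSMUSG00000012396), the nuclear receptors as Esrrb at chr12:86361117-86521628 (plus strand, ENSMUSG00000021255) and Nr5a2 at chr1:136842571-136960448 (minus strand, ENSMUSG00000026398), and the LIF target as Tfcp2l1 at chr1:118627945-118685168 (plus strand, ENSMUSG00000026380). The zinc finger and T-box genes lie as Zfp42 at chr8:43295063-43306980 (minus strand, ENSMUSG00000051176) and Tbx3 at chr5:119670669-119684724 (plus strand, ENSMUSG00000018604). The Krüppel-like genes lie as Klf2 at chr8:72319033-72321656 (plus strand, ENSMUSG00000055148), Klf4 at chr4:55527143-55532466 (minus strand, ENSMUSG00000003032) and Klf5 at chr14:99298691-99315036 (plus strand, ENSMUSG00000005148). The tenth, Nr0b1 at chrX:86191764-86195947 (plus strand, ENSMUSG00000025056), is X-linked.

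The stretches before the transcription start of 4 members are shown because they hold letters that factors of the same network are known to read, so that the values below can be set beside them. RefSeq promoter windows on GRCm38.p6 were held for 8 of the 10 members, in 11 windows, and not for Klf5 and Tbx3. The 250 bases before each start were searched on both strands, and capitals mark matches. The letters TTTGCAT, the core of the octamer that POU factors such as Pou5f1 bind, were in 4.12% of all 32851 windows. The GC box GGGCGTGG and the box GGGTGTGG, which KLF factors bind, were in 4.79% and 3.2%. Position -1 is the base just before the start. The Nanog stretch (chr6:122707239-122707488, plus strand) holds TTTGCAT from -75 and GGGCGTGG from -10. The Tfcp2l1 stretch (chr1:118627695-118627944, plus strand) holds the reverse complement of GGGCGTGG from -61 and again from -47. In the Zfp42 stretch (chr8:43307010-43307259, minus strand) TTTGCAT begins at -185 and the reverse complement of GGGTGTGG at -75. The second of the Nr5a2 starts (chr1:136953631-136953880, minus strand) has GGGCGTGG from -157. All are written 5′ to 3′ on the gene's strand.
Nanog: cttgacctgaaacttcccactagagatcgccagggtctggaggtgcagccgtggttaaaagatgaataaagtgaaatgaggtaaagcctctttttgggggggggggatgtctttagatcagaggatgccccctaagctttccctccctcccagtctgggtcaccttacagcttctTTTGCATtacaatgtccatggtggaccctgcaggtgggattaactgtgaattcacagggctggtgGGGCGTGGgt
Tfcp2l1: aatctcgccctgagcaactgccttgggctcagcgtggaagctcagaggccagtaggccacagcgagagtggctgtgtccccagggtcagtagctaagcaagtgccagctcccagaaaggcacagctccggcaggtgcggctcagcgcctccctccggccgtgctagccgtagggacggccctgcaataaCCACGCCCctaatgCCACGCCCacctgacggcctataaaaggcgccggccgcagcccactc
Zfp42: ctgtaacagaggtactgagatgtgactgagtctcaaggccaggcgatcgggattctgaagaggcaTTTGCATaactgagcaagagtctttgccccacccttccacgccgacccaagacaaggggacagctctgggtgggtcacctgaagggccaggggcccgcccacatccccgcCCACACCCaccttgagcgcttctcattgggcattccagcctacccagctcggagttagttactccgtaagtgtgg
Nr5a2: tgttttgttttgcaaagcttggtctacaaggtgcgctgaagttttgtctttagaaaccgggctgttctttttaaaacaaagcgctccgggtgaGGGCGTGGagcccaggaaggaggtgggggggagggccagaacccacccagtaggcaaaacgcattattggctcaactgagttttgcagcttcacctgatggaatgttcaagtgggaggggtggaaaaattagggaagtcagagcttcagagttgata

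The windows of Esrrb, Klf2, Klf4 and Nr0b1 held none of these matches. Across the bulk libraries Nanog and Zfp42 each had Tfcp2l1 as the nearest member, and Nr5a2 had Klf2. The nuclear receptor half-site CAAGGTCA, to which Esrrb and Nr5a2 are known to bind, was in 1.33% of all windows, the STAT element TTCCNGGAA in 0.913%, the TCF site CTTTGATC in 0.801% and a pair of CCAG half-sites for Tfcp2l1 in 2.78%. None of these 4 was found in a member's window. A match is a stretch of letters and not a measured binding site, and these windows do not reach the distal enhancers where most binding of these factors is known to lie.

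ESCs gave the highest group mean of the 10 members in 9 cases. Nr0b1 was the exception, with 1443 ± 54.98 in ESCs and 1691 ± 205 in XGFP+ PGCLCs (SD, n = 4 each), and these groups overlapped. Per kilobase of annotated exon, Zfp42 (15482 ± 916) and Nanog (14078 ± 559) stood at the top in ESCs and their libraries overlapped. Tfcp2l1 (7510.4 ± 540.2) and Esrrb (4158 ± 110.02) came next, each apart from its neighbours. Klf2 (2344 ± 264) and Klf4 (1881 ± 273) overlapped, as did Nr0b1 (798 ± 30.4), Nr5a2 (756 ± 78.9) and, with Nr5a2, Tbx3 (627 ± 112.7), while Klf5 (368 ± 57.1) lay below all others. These per-kilobase values are normalized counts per kilobase, SD, n = 4.

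**Figure D1:**
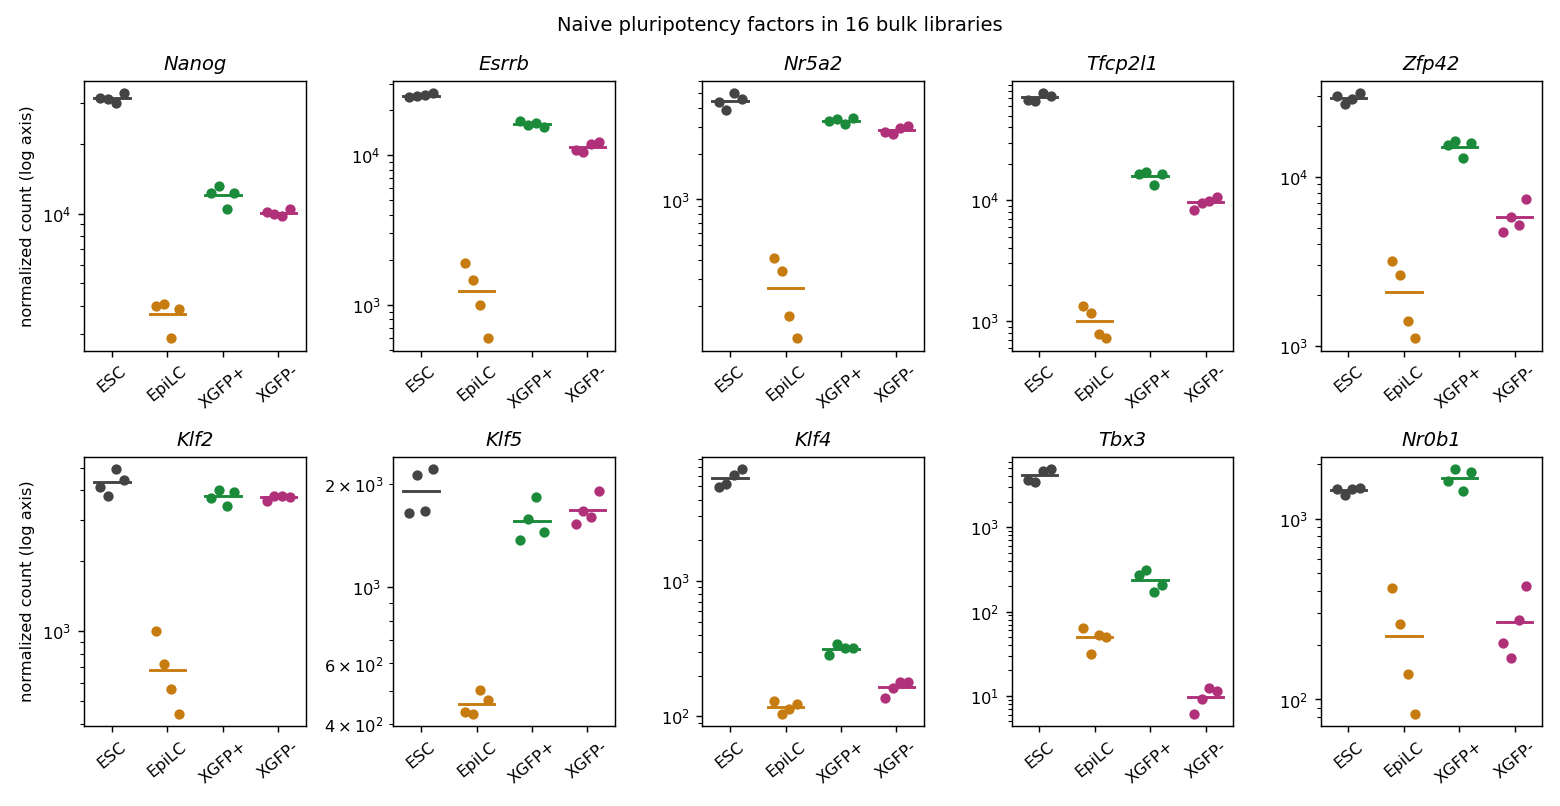
Normalized count (log axis) of each member in the 16 bulk libraries, with 1 point per library in the order of library number and a bar at the group mean. All 10 members lie lower in EpiLCs than in ESCs, and in XGFP- PGCLCs Tbx3 lies below EpiLCs and Nr0b1 beside them while the other 8 lie above EpiLCs.

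The first comparison asked how far the network was shut down on the way from ESCs to EpiLCs. All 10 members fell, with log2 differences from -2.05 for Klf5 to -6.39 for Tbx3 and a median of -4.10, and no library of one group overlapped the other. Of all genes tested, 22.9% were called lower in this comparison and 29.5% were lower without overlap, and the median difference over all genes was 0.01. The EpiLC mean stood at 1.19% of the ESC mean for Tbx3, 1.41% for Tfcp2l1 and 2.06% for Klf4. Klf5 kept 24.0%, Klf2 15.8% and Nr0b1 15.6%. Levels within groups were also split by library number, for the members only. Without a share over all genes, these counts are no result about the members. In EpiLCs libraries 1 and 2 were both above libraries 3 and 4 for 7 of the 10 members and both below for 1. In ESCs and in XGFP- PGCLCs the counts were 0 above and 6 below, and in XGFP+ PGCLCs 3 above and 0 below. The labels do not say what the library numbers mean, and the part of this split in the results was not tested.

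The second comparison asked which members came back in PGCLCs, and whether they did so in XGFP+ cells, which keep the reporter of the 129S1/SvImJ X, and in XGFP- cells, which have lost it. In XGFP+ PGCLCs all 10 were higher than in EpiLCs, by 1.41 (Klf4) to 4.03 (Tfcp2l1) on the log2 scale with a median of 2.76, where 27.8% of all genes were called higher and 33.8% were higher without overlap. In XGFP- PGCLCs 7 were higher, where 29.9% of all genes were, and 1 was lower, where 31.9% were. Tbx3 was the one lower, and Klf4 and Nr0b1 were not called. Of the members, 8 were higher and 1 lower without overlap in XGFP- PGCLCs, against 35.5% and 38% of all genes. Both comparisons use the same EpiLC libraries, so they are not independent of each other. The 3 feeder and fibroblast markers summed to between 9.57 and 29.9 in the sorted PGCLCs and between 228 and 319 in ESCs and EpiLCs, and the part of this in the members' differences was not tested.

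The third comparison set XGFP- directly against XGFP+ PGCLCs. In XGFP- cells 5 members were lower and 0 higher, where 12.5% of all genes were called lower and 11.3% higher. The 5 were Tbx3, Nr0b1, Zfp42, Klf4 and Tfcp2l1. This fit did not use the library number as a pairing. With that number as a block over all 4 groups, Tfcp2l1 missed the threshold and the others kept their calls. Without overlap, 8 of 10 were lower, against 21.7% of all genes, and Klf2 and Klf5 overlapped. The median difference of the 10 was -0.61 and that of all genes 0.01. A marker pair moved along with them: Dazl and Ddx4, which rise in later germ cells, summed to between 3304 and 8587 in XGFP+ and between 315 and 1104 in XGFP- PGCLCs. Of 8 gonadal somatic markers 4 were in the table, and these summed to between 71.8 and 120.2 in XGFP+ and between 30.9 and 45.1 in XGFP- cells. The 3 endothelial markers in the table summed to between 98.9 and 120.9 and between 233 and 332. Their part in the members' differences was not tested.

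**Figure D2:**
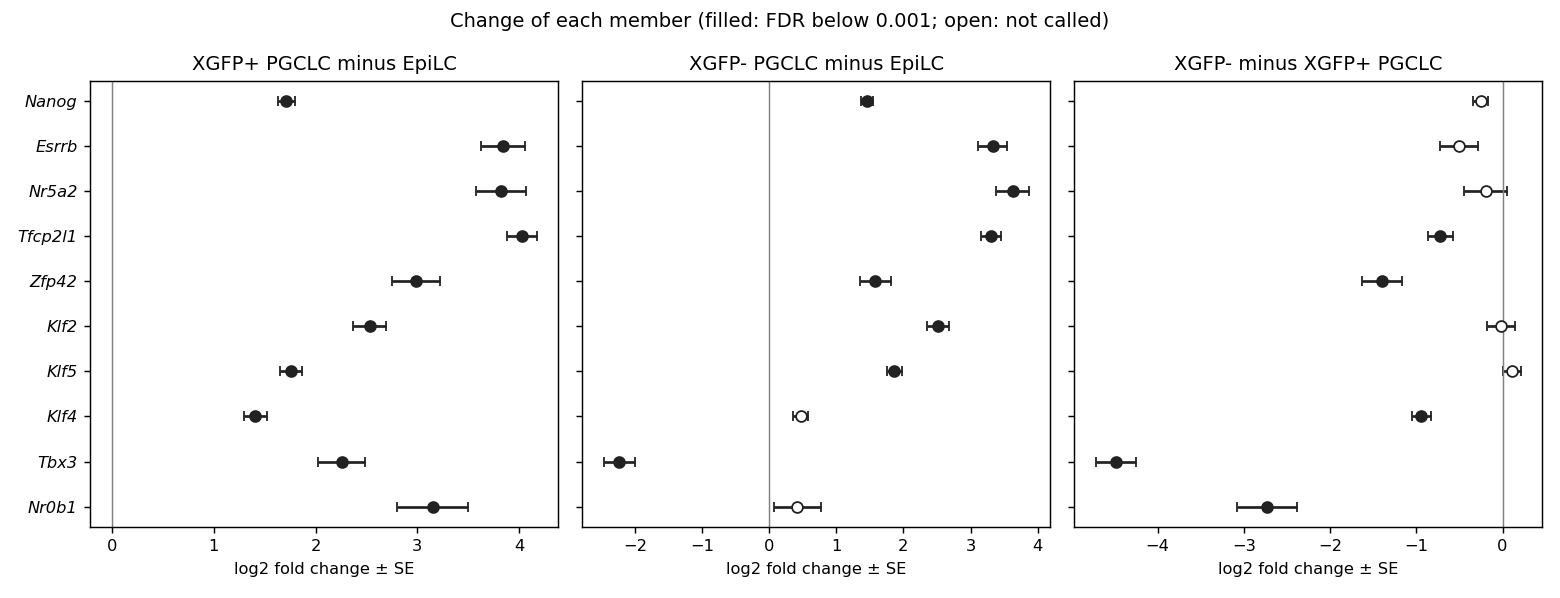
log2 difference ± SE of each member in 3 comparisons of the bulk groups (limma, 4 libraries a group), filled where the FDR was below 0.001. All 10 points lie right of 0 for XGFP+ PGCLCs against EpiLCs, 9 do for XGFP- PGCLCs, and Tbx3 and Nr0b1 lie farthest left where the PGCLC groups are set against each other.

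Nanog is a homeodomain factor that holds the network in its self-renewing state. Its normalized counts were 31578, 31306, 30164 and 33204 in ESCs, 3968, 4055, 2883 and 3854 in EpiLCs, 12258, 13178, 10511 and 12239.6 in XGFP+ PGCLCs and 10126, 9977, 9769 and 10437 in XGFP- PGCLCs (libraries 1 to 4). EpiLCs were lowest in every library, and each PGCLC library lay between the EpiLC and ESC ranges. Against EpiLCs it rose by 1.71 (SE 0.0876, FDR 3.74e-12) in XGFP+ and by 1.46 (FDR 2.44e-11) in XGFP- PGCLCs. The PGCLC groups reached 38.2% and 31.9% of the ESC mean. The 2 PGCLC groups did not overlap, but their difference of -0.25 was not called (FDR 0.0233). With those 2 groups fitted alone and the library number as a block, an alternative chosen after seeing the data, the FDR was 0.000668.

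Esrrb and Nr5a2 are orphan nuclear receptors that bind the same kind of half-site. Esrrb, a target of the GSK3 and Tcf7l1 branch, read 24493, 24828, 25214 and 26038 in ESCs, 1902, 1453, 995 and 594 in EpiLCs, 16899, 16063, 16423 and 15394 in XGFP+ PGCLCs and 10929, 10476, 11930.1 and 12343 in XGFP- PGCLCs. Nr5a2, which can activate Pou5f1, read 4369, 3888, 5007 and 4582 in ESCs, 413, 340.2, 171 and 121.5 in EpiLCs, 3273, 3374, 3129 and 3418 in XGFP+ PGCLCs and 2797, 2713, 2978 and 3044 in XGFP- PGCLCs. Both kept the same order of groups, ESC, XGFP+, XGFP- and EpiLC, with no overlap between neighbours. Against EpiLCs Esrrb rose by 3.84 (SE 0.217) and 3.33 and Nr5a2 by 3.82 (SE 0.248) and 3.63 in XGFP+ and XGFP- PGCLCs. Neither was called between the PGCLC groups, Esrrb at -0.51 (FDR 0.0619) and Nr5a2 at -0.19 (FDR 0.546). The shared SE of both genes includes the wide EpiLC libraries, whose coefficient of variation was 45.8% for Esrrb and 52.7% for Nr5a2. With the PGCLC groups fitted alone, Esrrb was called lower in XGFP- cells (FDR 3.39e-05).

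Tfcp2l1 is a target of LIF and STAT3 that supports self-renewal, and Zfp42 (Rex1) is a zinc finger protein long used as a marker of naive cells. Tfcp2l1 read 67684, 65675, 76709 and 73467 in ESCs, 1333, 1161, 778 and 717 in EpiLCs, 16448, 16953, 13355 and 16358 in XGFP+ PGCLCs and 8291, 9426, 9862 and 10699.6 in XGFP- PGCLCs. It had the widest return of the 10 in XGFP+ cells, 4.03 (SE 0.149) above EpiLCs, and still stood at 22.3% of the ESC mean there, while XGFP- cells lay at a log2 difference of -2.89 from ESCs. Between the PGCLC groups it was lower in XGFP- cells by a log2 difference of -0.72 (SE 0.149, FDR 0.000593). That call was near the threshold: the FDR was 0.00115 after quantile normalization and 0.00102 with the library number as a block, and leaving out 1 library took it to between 0.00157 and 0.00312 for 6 of the 16 libraries (XGFP+ libraries 1, 2 and 4, and XGFP- libraries 1, 2 and 3). Zfp42 read 29775, 27042, 28586 and 31086 in ESCs, 3173, 2618, 1396 and 1105 in EpiLCs, 15327, 16136, 12845 and 15871 in XGFP+ PGCLCs and 4679, 5769.9, 5198 and 7382 in XGFP- PGCLCs. No 2 of its groups overlapped. It rose over EpiLCs by 2.98 (SE 0.233) in XGFP+ and by 1.58 in XGFP- cells.

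The Krüppel-like factors Klf2, Klf4 and Klf5 bind the same GC-rich letters and can stand in for each other in ESCs, where Klf4 answers mainly to LIF and STAT3 and Klf2 to inhibition of MEK. Klf2 read 4151, 3790.4, 4944 and 4434 in ESCs, 1004, 719, 566 and 440.4 in EpiLCs, 3729, 4015, 3427 and 3931 in XGFP+ PGCLCs and 3605, 3796, 3778 and 3754 in XGFP- PGCLCs. Klf5 read 1648, 2125, 1666 and 2209 in ESCs, 432, 427, 503 and 470.0 in EpiLCs, 1374, 1583, 1825 and 1451 in XGFP+ PGCLCs and 1523, 1672, 1606 and 1904 in XGFP- PGCLCs. For both, each PGCLC group overlapped the ESC libraries, with group means from 81.5% to 87.7% of the ESC mean. Klf4 read 4937, 5169.8, 6098 and 6731 in ESCs, 130.7, 103.8, 114.3 and 123.4 in EpiLCs, 282, 340.4, 318 and 319.7 in XGFP+ PGCLCs and 136.1, 163, 178 and 180.4 in XGFP- PGCLCs. Every Klf4 library outside ESCs was far below ESCs, and the PGCLC means reached only 5.49% and 2.86% of the ESC mean. Over EpiLCs Klf4 rose by 1.41 (SE 0.114, FDR 2.31e-09) in XGFP+ cells, and in XGFP- cells its difference of 0.47 missed the threshold (FDR 0.00107) although the libraries did not overlap. XGFP- cells had less Klf4 than XGFP+ cells (log2 difference -0.94, SE 0.114, FDR 2.44e-06). Klf2 at -0.01 (FDR 0.952) and Klf5 at 0.11 (FDR 0.427) were not called between the PGCLC groups.

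Tbx3 is a T-box factor that acts downstream of PI3K and MAPK signals in ESCs and also takes part in endoderm formation. It read 3642, 3398, 4680.2 and 4903 in ESCs, 63.4, 31.6, 52.7 and 50.4 in EpiLCs, 268, 312, 171 and 207 in XGFP+ PGCLCs and 6.07, 9.14, 12.5 and 11.3 in XGFP- PGCLCs. It moved in opposite directions from EpiLCs, up by 2.26 (SE 0.234, FDR 7.1e-08) in XGFP+ and to a log2 difference of -2.23 (FDR 6.76e-08) in XGFP- PGCLCs. The PGCLC groups differed by -4.49 (SE 0.234, FDR 1.33e-10), the widest difference among the members, and no library overlapped. Even so, XGFP+ PGCLCs had only 5.76% of the ESC mean and XGFP- PGCLCs 0.235%. XGFP- values of this size correspond to few reads per library, so the size of the fold depends on the pseudocount, while the lack of overlap does not.

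Nr0b1 (Dax1) is a nuclear receptor without a DNA-binding domain that restrains Nr5a2 and Esrrb, and it is the member that lies on the X chromosome (chrX:86191764-86195947 on mm10, plus strand, protein-coding). It read 1467, 1362, 1462 and 1482 in ESCs, 416, 263, 139.1 and 82.9 in EpiLCs, 1624, 1885, 1433 and 1822 in XGFP+ PGCLCs and 206, 169.7, 276 and 423 in XGFP- PGCLCs. XGFP+ PGCLCs overlapped ESCs, XGFP- PGCLCs overlapped EpiLCs, and these pairs lay apart from each other. The fall from ESCs to EpiLCs was -2.93 (SE 0.346, FDR 5.09e-07) and the rise from EpiLCs to XGFP+ PGCLCs 3.15 (FDR 1.5e-07). In XGFP- PGCLCs Nr0b1 stayed 0.42 from EpiLCs (FDR 0.273), and it was lower than in XGFP+ cells by a log2 difference of -2.73 (SE 0.346, FDR 4.06e-06).

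Because Nr0b1 is X-linked, it is the member for which the share of allelic reads from the 129S1/SvImJ X could be used. The question was how much of its level came from each X chromosome. The share was 0.213, 0.211, 0.175 and 0.198 in ESCs, 0.161, 0.143, 0.141 and 0.112 in EpiLCs, 0.214, 0.229, 0.122 and 0.144 in XGFP+ PGCLCs and 0.00326, 0, 0.00244 and 0.0141 in XGFP- PGCLCs. Most allelic Nr0b1 reads thus came from the CAST/EiJ X in every library, and in XGFP- PGCLCs nearly all did. The skew was already present in ESCs (0.175 to 0.213), so a low share alone does not mark an inactive X for this gene. The mean share was 0.177 ± 0.0523 in XGFP+ and 0.00496 ± 0.00627 in XGFP- PGCLCs (SD, n = 4 each), with an exact permutation p of 0.0286 (0.0429 adjusted over 6 pairs of groups), the smallest that 4 against 4 allow. The same p applied to XGFP- PGCLCs against EpiLCs and ESCs and to EpiLCs against ESCs. XGFP+ PGCLCs were not separated from EpiLCs (exact permutation p 0.257) or from ESCs (0.486). The exact sign-flip test was also run with same-numbered PGCLC libraries taken as 4 pairs, a pairing that the labels do not state. It gave 0.125, the smallest that 4 pairs allow.

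Splitting each library's normalized count by that share gave 1387 ± 145 from the CAST/EiJ X and 304 ± 110.5 from the 129S1/SvImJ X in XGFP+ PGCLCs, and 267 ± 109.1 and 1.83 ± 2.78 in XGFP- PGCLCs (SD, n = 4). The part assigned to the CAST/EiJ X ran from 1258 to 1560 in XGFP+ and from 169.7 to 417 in XGFP- cells, without overlap. The PGCLC groups thus also differed in the part assigned to the chromosome that carries XTomato, on which both were sorted. That part differed by more counts than the 129S1/SvImJ part. In proportion the 129S1/SvImJ part differed more (304 against 1.83) than the CAST/EiJ part (1387 against 267). In ESCs the parts were 1156 ± 58.5 and 287 ± 23.5, and in EpiLCs 192 ± 122.5 and 33.4 ± 25.3. The split assumes that reads without a SNP divide as the allelic reads do, and the number of allelic reads behind each share is unknown.

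**Figure D3:**
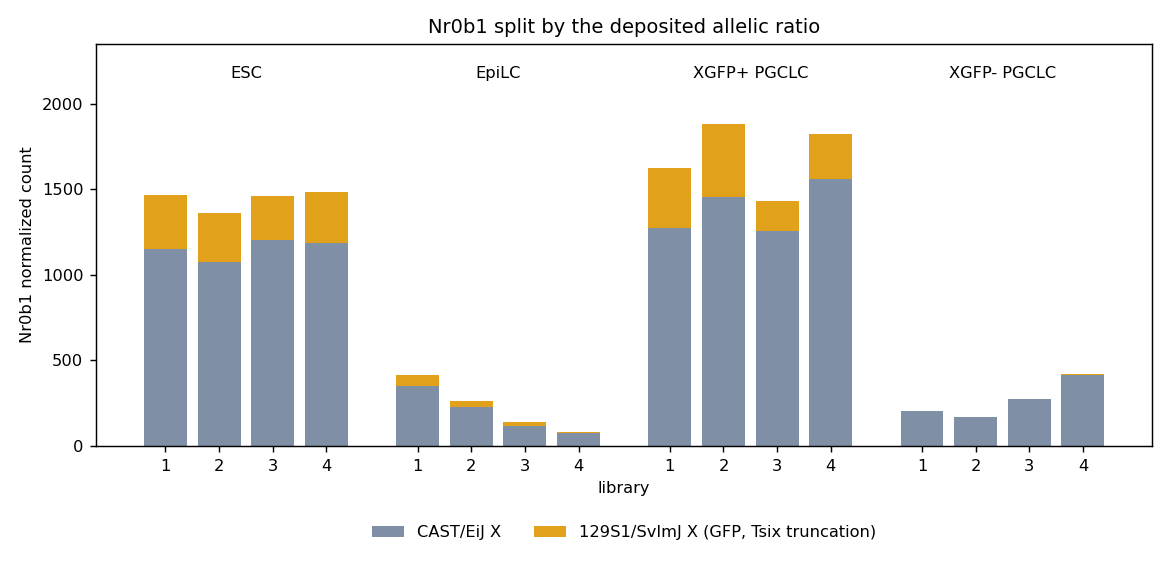
Nr0b1 normalized count in each bulk library, with the bar divided by the deposited share of allelic reads from the 129S1/SvImJ X (top) and the CAST/EiJ X (bottom). The CAST/EiJ part runs from 1258 to 1560 in XGFP+ and from 169.7 to 417 in XGFP- PGCLCs.

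Against ESCs, 4 members were lower in XGFP+ PGCLCs (Nanog, Klf4, Tfcp2l1 and Tbx3), where 24.9% of all genes were called lower, and 7 were lower in XGFP- PGCLCs (these 4 with Esrrb, Zfp42 and Nr0b1), where 29.6% were. Without overlap, 7 and 8 members were lower, against 31.6% and 35.4% of all genes. The range in XGFP+ cells ran from -4.17 for Klf4 to 0.22 for Nr0b1. In XGFP- cells it ran from -8.62 for Tbx3 to -0.18 for Klf5. The count in XGFP+ cells rose to 7 when these 2 groups were fitted alone, with Esrrb, Zfp42 and Nr5a2 added (highest FDR 0.000297), and leaving out EpiLC library 4 raised it to 6.

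Over the 16 libraries Klf2 and Nr5a2 lay closest together of all pairs (Pearson r 0.996 of the log2 values), with Esrrb (0.992 to Nr5a2) and Klf5 (0.950 to Klf2) beside them. Nanog and Tfcp2l1 were closest to each other (0.989), and Zfp42 was closest to Tfcp2l1 (0.966). Klf4 and Tbx3 were each other's nearest member (0.917), and Tbx3 and Klf2 were the least alike (0.348). Nr0b1 was nearest to Zfp42 (0.913). These coefficients describe 4 group means more than 16 independent points. Among 11692 genes outside the list with a mean above 100, the 5 nearest to the mean course of the members were Myh13 (r 0.993), Kat2b (0.992), Nfatc2ip (0.988), Npc2 (0.985) and Crlf3 (0.985). Myh13, a muscle myosin heavy chain, had mean normalized counts of 699.8, 57.2, 397 and 182 in ESCs, EpiLCs, XGFP+ and XGFP- PGCLCs. Kat2b, a histone acetyltransferase, had 7705, 2117, 5633 and 4447.

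The shares of all genes called, beside which the counts of the following lists stand, were 24.9% higher and 22.9% lower for EpiLCs against ESCs, 27.8% and 29.5% for XGFP+ PGCLCs against EpiLCs, 29.9% and 31.9% for XGFP- PGCLCs against EpiLCs, and 11.3% and 12.5% for XGFP- against XGFP+ PGCLCs. Lists of 6 to 10 genes give coarse counts, and no list was tested as a set. Of the LIF and STAT3 pathway, 7 of 9 genes fell from ESCs to EpiLCs and 1 rose, and 6 of 9 were higher again than in EpiLCs in each PGCLC group, with 1 lower in XGFP+ and 3 lower in XGFP- cells. The receptor genes Lifr and Il6st fell with log2 differences of -2.38 and -2.13 and rose over EpiLCs by 2.26 and 2.34 in XGFP+ and by 2.20 and 2.43 in XGFP- cells. Jak1 and the kinase targets Pim1 and Pim3 took the same course. Stat3 itself did not: it fell by 2.06 to EpiLCs and lay a further 1.29 lower in XGFP+ cells and 1.47 lower in XGFP- cells on the log2 scale. Socs3, the feedback inhibitor, was -3.10 and -3.48 from ESCs in the PGCLC groups. Between the PGCLC groups 2 of the 9 were lower in XGFP- cells, the homeobox target Gbx2 (-1.91) and the ligand gene Lif (-1.21).

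Of 7 WNT and GSK3 genes, 2 rose to EpiLCs, Lef1 by 6.58 and Tcf7 by 0.65, and 0 fell. Tcf7l1, the repressor of Esrrb and Klf2, was not called there (0.43). In XGFP+ PGCLCs 1 of the 7 was higher and 3 were lower than in EpiLCs, and in XGFP- PGCLCs 2 and 2. Between the PGCLC groups 3 were higher in XGFP- cells and 0 lower: Lef1 by 1.71, the pathway target Axin2 by 1.10 and Gsk3b by 0.51.

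Other naive markers mirrored the 10 members at first. All 10 of them fell to EpiLCs, from -1.77 for Dppa3 to -7.26 for Spic. In XGFP+ PGCLCs 8 of 10 were then higher than in EpiLCs and 1 lower, and in XGFP- PGCLCs 6 and 2. Fgf4, the ligand that drives exit from the naive state, kept falling, by 2.21 in XGFP+ and by 5.72 in XGFP- cells on the log2 scale. Between the PGCLC groups 5 of 10 were lower in XGFP- cells and 0 higher, with log2 differences of -4.71 for Zfp57, -3.51 for Fgf4, -2.06 for Dppa5a, -1.76 for Spic and -0.91 for Dppa3. Prdm14 in this list is also a transgene.

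General pluripotency genes gave another picture. Of 6, 3 rose and 1 fell to EpiLCs, and 0 were called between the PGCLC groups in either direction. Sox2 was the one that fell (-2.06), and it rose over EpiLCs by 2.02 in XGFP+ and by 2.13 in XGFP- PGCLCs, whereas Pou5f1 was at -0.03 between EpiLCs and ESCs and was not called. All 7 formative and primed genes rose to EpiLCs and all 7 fell in both PGCLC groups, with Fgf5 at 8.43 and Pou3f1 at 5.95 above ESCs in EpiLCs. Of 25 paralogues of the members, 19 were tested. 5 of them rose and 8 fell to EpiLCs, where 24.9% and 22.9% of all genes did, and between the PGCLC groups 3 were higher and 5 lower in XGFP- cells, where 11.3% and 12.5% of all genes were. There Klf9 had the widest difference (-4.88).

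In single wells the question was how far the factors persisted in germ cells of rOvaries. Cells from XGFP+ PGCLCs were sorted as XGFP+ constitutive, and cells from XGFP- PGCLCs as XGFPhigh, XGFPintermediate and XGFPlow, all XTomato+. Wells under 4000 genes or 10000 reads, or over 5% mitochondrial reads, were left out. This kept 24 of 24 ESC wells, 88 of 94 constitutive wells, and 86.8%, 88.9% and 88.97% of the XGFPhigh, XGFPintermediate and XGFPlow wells, 374 wells in all. Their median depths were 1103780 reads in ESC wells, 354149 in constitutive wells and between 636623 and 645474 in the other 3 populations. Each population is 1 sample, since no label names cultures or animals, so there is no test. Levels are CPM, the reads of a gene summed over wells and scaled to the summed library size, with exact Poisson intervals, shares of wells have exact (Clopper-Pearson) binomial intervals, both at 95%, and both cover counting error only. ESC wells were sequenced in a run of their own, all constitutive wells in lane 2, and the other 3 populations in lanes 2 and 3. No 2 kept wells held identical counts. The 10 empty wells held at most 242 reads each and none from a member. Dazl, used here as a germ cell marker, had a read in 12.5% of ESC wells, and 80.2% of these reads came from 1 well.

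The germ cell markers Dazl and Ddx4 summed to between 1798 and 3449 CPM in the 4 rOvary populations and to 8.92 in ESC wells. With a filter on Dazl (above 1 on a natural log scale), 401 of 462 rOvary wells remained. Markers of other cells were not evenly spread: the 3 feeder and fibroblast markers (Col1a1, Col1a2, Thy1) summed to 167 in XGFPintermediate and 28.4 in XGFPlow and to at most 1.73 elsewhere, and the 4 endothelial markers (Kdr, Cdh5, Tek, Emcn) to 69.2 in XGFPintermediate and to at most 4.49 elsewhere. Of 4 blood markers 2 were in the table, and these summed to 26.3 in XGFPintermediate and to at most 0.237 elsewhere. The 4 markers of extraembryonic endoderm and trophoblast summed to 28.98 and 13.03 in XGFPintermediate and XGFPlow and to at most 4.07 elsewhere. The 8 gonadal somatic markers summed to between 8.02 and 34.3 in all populations.

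**Figure D4:**
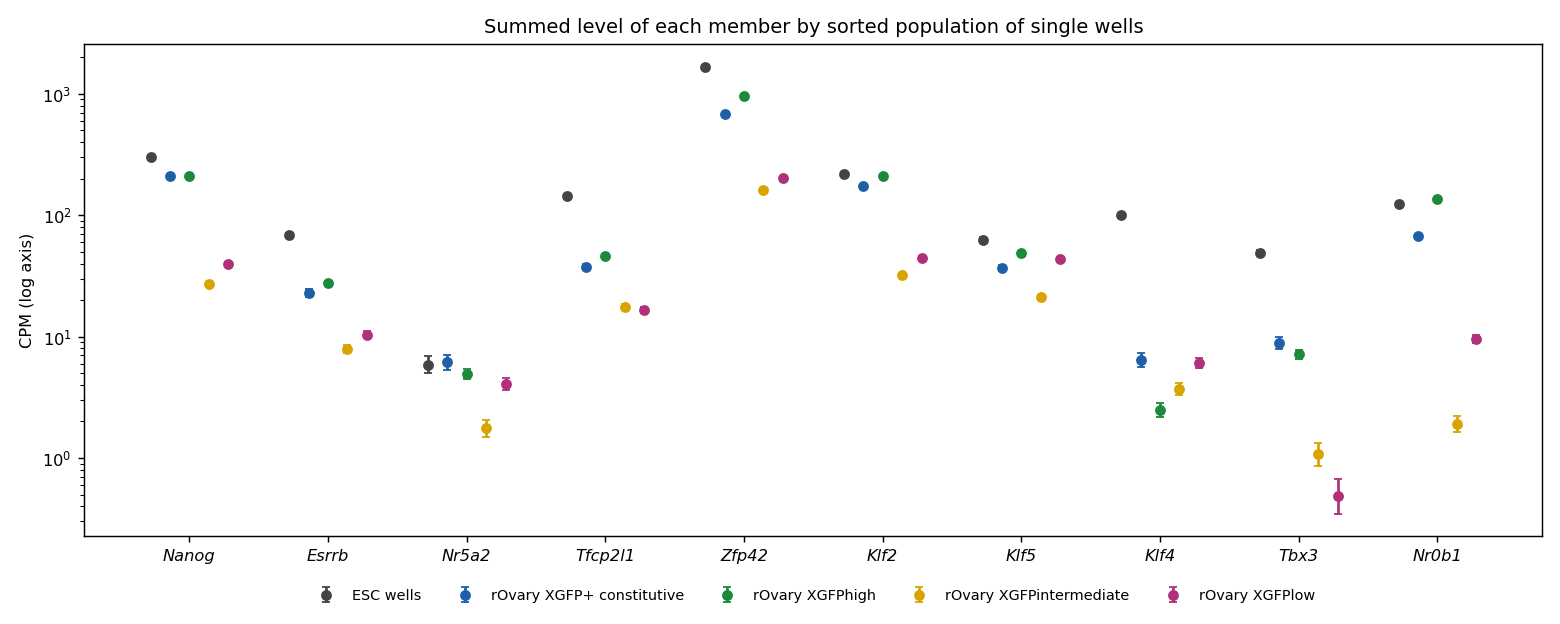
CPM of each member (log axis), summed over the kept wells of each sorted population, with exact 95% Poisson intervals that cover counting error only. For Nanog, Zfp42, Klf2, Tfcp2l1, Esrrb and Nr0b1 the XGFPhigh and constitutive points lie above those of XGFPintermediate and XGFPlow. The ESC point lies above all others for every member except Nr0b1 and Nr5a2, and farthest above for Klf4 and Tbx3.

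XGFPhigh cells had 6 members at higher levels than XGFPlow cells. Zfp42 stood at 970 CPM (95% interval 963 to 976) in XGFPhigh and 202 (199 to 205.5) in XGFPlow wells, a ratio of 4.79. Nanog stood at 209 (206 to 212) and 39.6 (38.2 to 41.01), a ratio of 5.28. The ratio was 4.76 for Klf2, 2.79 for Tfcp2l1, 2.68 for Esrrb and 14.1 for Nr0b1. In each comparison of wells, only genes above 10 CPM in at least 1 of the 2 populations were counted. These 6 were past 2-fold, of the 7 members above 10 CPM in XGFPhigh wells. Of 9271 genes counted, 4.43% were past 2-fold in this direction and 11.9% in the other. Klf5 was near even (1.13), and Klf4, Tbx3 and Nr5a2 were below 10 CPM in both populations. The sort was on the reporter of the 129S1/SvImJ X, and Nr0b1 lies on that chromosome. In XGFPlow 32.9% of the Nr0b1 reads came from 1 well. With the Dazl filter the ratio was 53.99 for Nr0b1, 7.16 for Nanog and 4.30 for Esrrb. In lane 2, with 14 and 15 wells, Esrrb turned to 0.805 while the other 5 stayed past 2-fold, and in lane 3 all 6 did. Of all genes, 778 of 8557 in lane 2 and 424 of 9352 in lane 3 were past 2-fold higher.

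The shares of wells with a read followed the same order. Nanog was read in 87.2% of XGFPhigh wells (95% interval 80.05 to 92.5) and in 80.7% of constitutive wells, against 35.2% of XGFPintermediate and 42.1% of XGFPlow wells. After thinning every well to 200000 reads the 4 shares were 87.1%, 79.5%, 30.7% and 40.2%. Zfp42 was the member most often read in each population, with 98.4%, 96.6%, 88.3% and 82.6% of wells in the same order. Nr0b1 was read in 64% of XGFPhigh and 45.5% of constitutive wells, and in 6.25% (2.74 to 11.9) of XGFPintermediate and 11.6% (6.47 to 18.7) of XGFPlow wells. The last 2 shares were not above the 12.5% of ESC wells with a Dazl read. Whether those Dazl reads were background or expression was not tested, so that share sets no floor. The highest Nr0b1 well reached 403 CPM in XGFPlow and 50.4 in XGFPintermediate, and the highest ESC well for Dazl 69.3. Per well the median number of members with a read was 7 of 10 in XGFPhigh and in constitutive wells, 3 in XGFPintermediate and 4 in XGFPlow wells, against 10 in ESC wells. At least 8 members were read in 55 XGFPhigh, 38 constitutive, 5 XGFPintermediate and 8 XGFPlow wells.

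**Figure D5:**
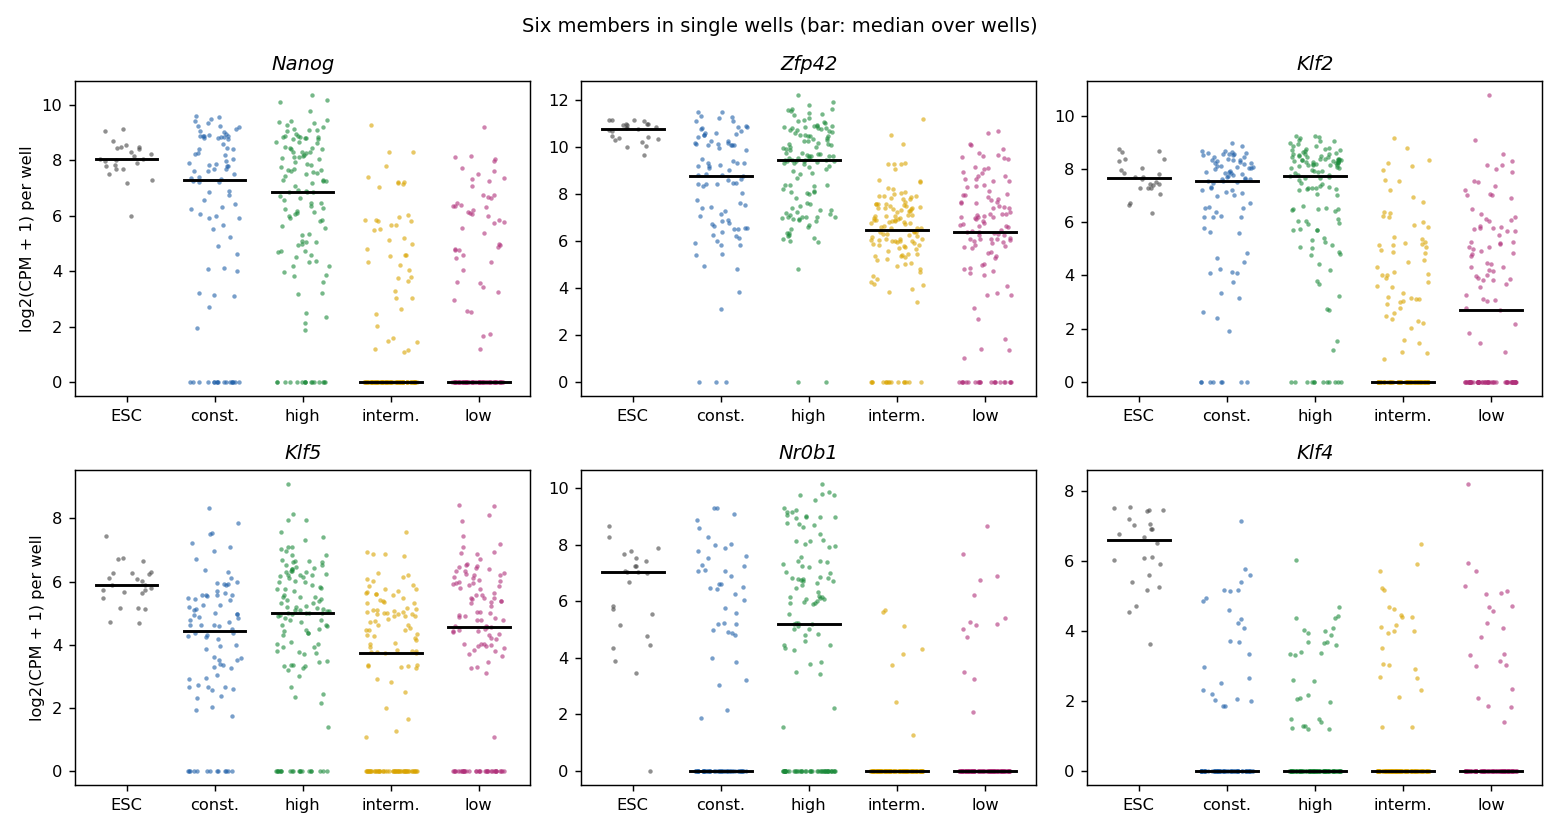
log2(CPM + 1) of 6 members in each kept well, by sorted population, with a bar at the median over wells. Nanog and Nr0b1 have a median of 0 in XGFPintermediate and XGFPlow wells with a tail of high wells, while Zfp42 and Klf5 keep a median above 0 in every population.

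Within a population the wells were far from uniform. Nanog ran from 0 through a median of 115.9 to 1305 CPM in XGFPhigh wells, and from 0 through a median of 0 to 596 in XGFPlow wells. Zfp42 ran from 0 through 692 to 4653 in XGFPhigh and from 0 through 82.6 to 1624 in XGFPlow wells. Klf2 had medians of 213 and 5.57 and a highest well of 607 and 1746 in these populations. ESC wells were tighter, with Nanog from 62.6 through 266 to 563 and Zfp42 from 799 through 1745 to 2280. Across wells of 1 population, Nanog went with Pou5f1 at an r between 0.68 (XGFPintermediate) and 0.85 (constitutive), and Zfp42 between 0.52 and 0.77. For Klf4 the same r lay between -0.18 and 0.03. These coefficients are descriptions over wells of 1 sample, which differ in depth.

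XGFPhigh and constitutive cells came from opposite PGCLC sorts, and for most members their levels were within 2-fold. Nanog stood at 209 in both, and Esrrb (1.22), Zfp42 (1.41), Klf2 (1.21), Klf5 (1.33) and Tfcp2l1 (1.23) had ratios of high over constitutive under 2. Nr0b1 was past 2-fold at 135.1 against 66.96 (ratio 2.02), where 1.23% of 8597 genes were past 2-fold higher and 1.79% lower. With the Dazl filter its ratio was 1.70 and after thinning 1.99, so this crossing did not hold. All constitutive wells lay in lane 2, which held 14 XGFPhigh wells. In lane 2 alone the ratio of Nr0b1 was 1.09 and Nanog (0.368) and Esrrb (0.391) were past 2-fold lower. There 1868 of 8593 genes were past 2-fold lower and 270 higher. Sequencing lane and population thus cannot be told apart for most wells.

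Between XGFPintermediate and XGFPlow cells, Klf5 was the 1 member past 2-fold, at 21.1 (20.1 to 22.1) in XGFPintermediate and 43.7 (42.3 to 45.2) in XGFPlow wells, a ratio of 0.482, where 3.99% of 9443 genes were past 2-fold lower and 4.67% higher. The ratio was 0.503 without the filter on wells and 0.566 with the Dazl filter. Nr0b1 stood at 1.92 and 9.59, below 10 in both. Tbx3 was read in 3.12% and 2.48% of wells, 4 and 3 wells, and Klf4 was at 3.69 and 6.06 with 39.4% of the XGFPlow reads from 1 well.

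Against ESC wells, which lay in a run of their own, the rOvary populations are given side by side only. Klf4 stood at 101.1 CPM in ESC wells and between 2.49 and 6.43 in the 4 rOvary populations. Tbx3 stood at 48.7 and between 0.487 and 8.91. Klf2 stood at 219.9 in ESC wells and at 211 in XGFPhigh and 174 in constitutive wells, and Nr0b1 at 122.9, 135.1 and 66.96. The 2 members with the lowest share of their ESC mean in XGFP+ PGCLCs, Klf4 and Tbx3, were at under 10 CPM in each rOvary population. So was Nr5a2 (1.75 to 6.14), which stood at 73.9% of its ESC mean in XGFP+ PGCLCs and at 5.88 CPM in ESC wells.

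The share of Nr0b1 reads from the 129S1/SvImJ X was given for 75 XGFPhigh wells, of which 16 were at 0, 3 at 1 and 56 between, with a median of 0.220. In 31 constitutive wells it was at 0 in 10, at 1 in 3 and between in 18, with a median of 0.0769. In 22 ESC wells it was at 0 in 9, at 1 in 2 and between in 11, with a median of 0.117. All 6 XGFPintermediate and all 5 XGFPlow wells with a value were at 0, and the number of allelic reads in each well is unknown. The median over wells of the median X-linked gene was 0.459 in ESC, 0.474 in XGFPhigh, 0.475 in constitutive, 0.293 in XGFPintermediate and 0.214 in XGFPlow wells. In ESC, XGFPhigh and constitutive wells the Nr0b1 median thus lay below that of the X-linked genes.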

How the data were processed

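Bulk RNA-seq was measured in 16 libraries and single-cell RNA-seq in 552 wells. Per the methods, the authors aligned stranded paired reads with STAR to mm10 with SNP positions masked, filtered them with WASP and counted genes with HTSeq (0.6.1). The bulk table deposited by the authors holds a normalized signal, reads divided by a DESeq2 (1.16) size factor. Whole reads were recovered for 100% of values (tolerance 0.01). The authors deposited the allelic ratio as a fraction and the single-cell table as raw read counts per well over genes of Ensembl release 67. 4 columns of other samples were not used, and 238 identifiers had no name.

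limma 3.58.1 (with a mean-variance trend) was run in R 4.3.3 on log2(value + 1) for genes with a mean above 10, with edgeR 4.0.16 and DESeq2 1.42.0 on recovered reads as alternatives. For XGFP- against XGFP+ PGCLCs limma recovered 96% of genes changed 2-fold and 100% of those changed 4-fold in simulated data of 16281 genes. The simulation gave all groups the same dispersion, unlike these libraries, so this recovery is not the power in these data. Same-numbered XGFP+ and XGFP- PGCLC libraries deviated together (r 0.135 to 0.307 in all 4 pairs). These numbers were taken as pairs in alternatives only, and the main fit did not use the pairing. No replicate libraries agreed within sampling noise (chi-square per gene 8.80 to 44.5). Permutation tests were exact and two-sided. Python 3.11.15 (scipy 1.17.1) computed well sums and intervals. All 10 members are named in every comparison, and nearest genes were ranked by Pearson r. The members and all gene lists were chosen with earlier results of these data known.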

Additional observations from a re-analysis of the deposited data

Results flagged for a closer look

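The change from EpiLCs differed between the PGCLC groups for 5 members, tested by limma as the contrast of XGFP- against XGFP+ PGCLCs in which the EpiLC term cancels: Tbx3 by -4.49, Nr0b1 by -2.73, Zfp42 by -1.40, Klf4 by -0.94 and Tfcp2l1 by -0.72 on the log2 scale. With the library number as a block Tfcp2l1 missed the threshold (FDR 0.00102), which left 4 members. Each was lower in all 4 XGFP- libraries than in any XGFP+ library.

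Of 44 groups of 4 libraries examined for 1 library apart from the rest, 2 had a gap to the nearest library beyond Dixon's limit for 4 samples, and chance gives about 1 in 20 groups. Tfcp2l1 in XGFP+ PGCLCs had a gap of 0.835 of its range, with library 3 lowest at 13355. Nr0b1 in ESCs had a gap of 0.831, with library 2 lowest at 1362.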

How the results depend on the processing

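Over settings other than leaving out a library, 536 fold changes of members kept direction and side of the threshold, 11 gained and 3 lost a call. These include 1 setting chosen after seeing the data, the PGCLC groups fitted alone with the library number as a block. Leaving out 1 library gave 944, 7 and 6, and 3 turned direction, all Klf2 between the PGCLC groups, near 0 (0.0166, 0.00639 and 0.0028, in a range of -0.0596 to 0.0166). Called members then ranged from 10 to 10 for EpiLCs against ESCs and for XGFP+ PGCLCs against EpiLCs, 8 to 9 for XGFP- PGCLCs against EpiLCs, 4 to 5 between the PGCLC groups, and 4 to 6 and 7 to 7 for XGFP+ and XGFP- PGCLCs against ESCs. XGFP+ PGCLCs against ESCs gave 7 when fitted alone. With the replicate block, Tfcp2l1 between the PGCLC groups lost its call and Klf4 in XGFP- PGCLCs against EpiLCs gained one (FDR 0.000596), and no other call changed. Only XGFP+ and XGFP- libraries were taken as pairs, since same-numbered libraries of other groups correlated at -0.0105 to 0.16. The replicate block nevertheless spanned all 4 groups.

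For the Nr0b1 share, pairing by the replicate block gave differences of -0.0600, -0.134, -0.172 and -0.194 for EpiLCs against ESCs and for XGFP- PGCLCs against EpiLCs, XGFP+ PGCLCs and ESCs, each with an exact sign-flip p of 0.125, the smallest that 4 pairs allow. Without 1 library they ranged from -0.068 to -0.0509, -0.144 to -0.127, -0.191 to -0.155 and -0.202 to -0.19, with exact permutation p values of 0.0571, the smallest that 3 against 4 allow.

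In single wells, members past 2-fold between XGFPhigh and constitutive numbered 0 with the Dazl filter, 0 after thinning and 2 in lane 2. In that lane 1868 of 8593 genes were past 2-fold lower and 270 higher. Between XGFPintermediate and XGFPlow the members numbered 0 without the filter on wells, 0 with the Dazl filter and 0 by the mean over wells. They numbered 3 in lane 2 and 2 in lane 3. Of all genes, 1277 of 9026 were past 2-fold higher and 1124 lower in lane 2. In lane 3 these were 481 and 479 of 9525. Esrrb between XGFPhigh and XGFPlow turned to a ratio of 0.805 in lane 2. XGFPhigh against constitutive in lane 3 could not be run, as no constitutive wells lay there. The causes were not tested. Klf4, Tbx3 and Nr5a2 stood at under 10 CPM in each rOvary population, and the part of depth in this was not tested.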

Other observations

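ESCs were measured by both assays, with CPM, reads scaled to library size, in the bulk libraries and summed over wells. The bulk value was 19.8 times the well value for Nr5a2, 12.9 times for Tfcp2l1 and 9.59 times for Esrrb, and it was lower than the well value for Zfp42 (0.455), Klf2 (0.514), Nr0b1 (0.306) and Klf5 (0.794). Nanog (2.74), Tbx3 (2.23) and Klf4 (1.48) lay between. The assays differ in library type, and their denominators are the genes of different tables, so an order of members within 1 assay cannot be set against the other.

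Across wells, the r of Nanog with Dazl was -0.46 in XGFPhigh wells and 0.02, 0.01 and -0.005 in constitutive, XGFPintermediate and XGFPlow wells. For Zfp42 it was -0.39 in XGFPhigh, 0.22 in constitutive, 0.56 in XGFPintermediate and 0.46 in XGFPlow wells. For Klf2 it was -0.45 in XGFPhigh, 0.07 in constitutive, -0.39 in XGFPintermediate and -0.05 in XGFPlow wells. In XGFPintermediate wells Zfp42 and Klf2 had opposite signs, and in XGFPlow wells Nanog and Klf2 were near 0. The Dazl filter was not applied to these wells. These are descriptions over wells of 1 sample each, which differ in depth.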
